A study of Mus musculus with 9 samples.

Results

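The chemokine axes of the receptors *Ccr8*, *Ccr6*, *Ccr4* and *Ccr3* were followed in whole left lungs from a mouse model of obliterative bronchiolitis (OB), the fibrotic closure of small airways that limits the life of lung grafts. The set has 10 genes: *Ccl1* and its receptor *Ccr8*, *Ccl20* and its receptor *Ccr6*, *Ccl17* and *Ccl22* with their receptor *Ccr4*, and the eotaxins *Ccl11* and *Ccl24* with their receptor *Ccr3*. Every probe whose RefSeq accession belonged to 1 of these genes was taken, which gave 11 probes, 2 for *Ccr4* and 1 for each other gene, of the 56601 probes tested and the 22909 genes named on the array. The genes were selected on earlier OB against sham values of these same arrays, so that contrast is given below as a description without a test.

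Left lungs of male C57BL/10 (H2b) donors were placed orthotopically into C57BL/6 (H2b) recipients, young adult mice that differ in minor histocompatibility antigens, and were taken at day 21. Grafts were classed by histology as OB, with fibrotic airway lesions (n = 3), or non-OB, without them (n = 3), and each lung was divided between histology and RNA, so the RNA came from another piece of the lung than the one graded. The sham group (n = 3) had a thoracotomy only. The methods name both strains as sham mice and the clustering plot of the study marks sham 1 as C57BL/10 and the other two as C57BL/6, whereas the sample labels give the same donor and recipient strain for all 9 arrays. No group in this series was a syngeneic graft, so the surgery of transplantation and the antigen mismatch cannot be told apart. Each lung was hybridised to 1 one-colour array, and values are log2 signals scaled to a common trimmed mean. Between 58.6% and 69.6% of the spots on an array were well above background and none was saturated. The 7 lung tissue markers, among them *Sftpc* and *Ager*, were well above background on all arrays, with a mean of 14.92 to 15.81 on the log2 scale. The arrays were spread over 4 slides, and scan days divided them in the same way. Grafts and sham met only on slide 1, where both replicate 1 grafts ran with sham 1 and sham 2. OB 2 ran beside non-OB 3 on slide 2, OB 3 beside non-OB 2 on slide 3, and sham 3 ran without another array of the series on slide 4. Values within slides are therefore given beside the group values for probes measured in sham.

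Chemokines are small secreted proteins that bind receptors on leukocytes and draw the cells along a gradient. Ccl1 is made by activated T cells and myeloid cells, and its receptor Ccr8 is carried by regulatory and type 2 helper T cells. Ccl20 is released by epithelium under inflammatory stimuli and attracts Ccr6-bearing B cells, type 17 helper T cells and immature dendritic cells. Ccl17 and Ccl22, products of dendritic cells and macrophages, share the receptor Ccr4 on regulatory and type 2 helper T cells, and the eotaxins Ccl11 and Ccl24 attract eosinophils through Ccr3. Each of these receptors is carried by more than 1 kind of leukocyte, so none of them marks a single cell type.

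Promoter windows of 250 bases before to 50 bases after the annotated start, from RefSeq on GRCm38.p6, were found for 8 of the 10 genes, with 2 windows for *Ccr6*. Printed are those of *Ccl1* and *Ccl20*, the ligands with the largest differences, of *Ccr6*, the receptor of Ccl20, and of *Ccl17*, the Ccr4 ligand measured on all arrays. The windows of *Ccr4* and *Ccr3*, which also held a motif that was searched, are described without being printed. Motifs were chosen after these sequences were seen and were searched on both strands. Capitals mark matches to the NF-kappa B-type motif GGGAANNNCC in the first 3 sequences and to the STAT-type motif TTCNNNNGAA in the last. The windows lie at chr11:82179763-82180062 on the minus strand, chr1:83116516-83116815, chr17:8242276-8242575 and chr8:94810203-94810502 on the plus strand.
Ccl1: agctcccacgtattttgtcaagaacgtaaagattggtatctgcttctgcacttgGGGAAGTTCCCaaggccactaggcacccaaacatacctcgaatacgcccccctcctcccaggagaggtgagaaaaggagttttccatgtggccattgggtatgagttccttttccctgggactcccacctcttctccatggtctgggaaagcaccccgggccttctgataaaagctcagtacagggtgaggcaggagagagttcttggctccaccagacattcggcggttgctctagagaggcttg
Ccl20: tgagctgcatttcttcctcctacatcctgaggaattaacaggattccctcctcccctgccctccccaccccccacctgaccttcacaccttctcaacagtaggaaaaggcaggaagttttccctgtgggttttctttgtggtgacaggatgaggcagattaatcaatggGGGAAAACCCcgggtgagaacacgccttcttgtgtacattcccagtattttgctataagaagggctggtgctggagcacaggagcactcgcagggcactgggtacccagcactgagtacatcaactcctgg
Ccr6: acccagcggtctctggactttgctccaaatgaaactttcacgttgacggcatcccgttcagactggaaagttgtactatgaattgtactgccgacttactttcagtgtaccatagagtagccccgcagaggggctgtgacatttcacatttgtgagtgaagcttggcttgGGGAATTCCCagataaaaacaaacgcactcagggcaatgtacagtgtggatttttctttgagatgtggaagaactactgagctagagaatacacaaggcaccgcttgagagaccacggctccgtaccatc
Ccl17: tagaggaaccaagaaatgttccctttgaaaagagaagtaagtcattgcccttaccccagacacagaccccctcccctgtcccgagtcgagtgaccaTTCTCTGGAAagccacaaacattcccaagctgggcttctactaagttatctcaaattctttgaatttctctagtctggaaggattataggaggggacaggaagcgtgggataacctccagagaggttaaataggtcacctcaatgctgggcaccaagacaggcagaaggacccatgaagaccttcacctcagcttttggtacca
The NF-kappa B-type motif was found in 4 of the 9 windows and in 5.78% of all 32851 promoter windows of this length. In *Ccl1* it matched on both strands, shifted by 1 base, with the first base 196 bases before the start. In *Ccl20* it began 81 bases and in the second *Ccr6* window 80 bases before the start, and the fourth window with a match was that of *Ccr3*. The STAT-type motif was in 1 of the 9 windows and in 6.95% of all windows. The AP-1 motif TGANTCA was in 2 of the 9, those of *Ccr4* and *Ccr3*, and in 7.81% of all. A match is a run of letters in a window and no evidence of binding.

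In both kinds of graft the ligands *Ccl1*, *Ccl20*, *Ccl17* and *Ccl22* and the receptors *Ccr8*, *Ccr6* and *Ccr4* lay above every sham lung, while *Ccl11*, *Ccl24* and *Ccr3* did not separate by 2-fold. Between OB and sham, 8 of the 11 probes differed by at least 2-fold in their means, without overlap of the arrays, and all 8 were higher in OB. The same held in the higher direction for 6.25% of all probes, and because this contrast chose the genes nothing is read from that count. Between non-OB and sham, 7 of the 11 probes were called higher and none lower (limma, Benjamini-Hochberg adjusted p under 0.05 over all probes and at least 2-fold), beside 1.81% of all probes called higher. The 7 called probes belonged to 6 genes, *Ccl1*, *Ccr8*, *Ccl20*, *Ccl17*, *Ccl22* and *Ccr4*. Both counts, the 8 in OB and the 7 in non-OB, include the second *Ccr4* probe, which was well above background on no array. With dim probes left out, 6 probes were called in non-OB. The sham arrays of the non-OB test are those of the OB comparison that chose the genes, so the sham values are shared. Genes with low sham values were therefore favoured here too. The count and its p-values are not independent of that choice, and nothing is read from the excess over all probes. In whole lung RNA, more cells of a type and more RNA per cell cannot be told apart.

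**Figure D1:**
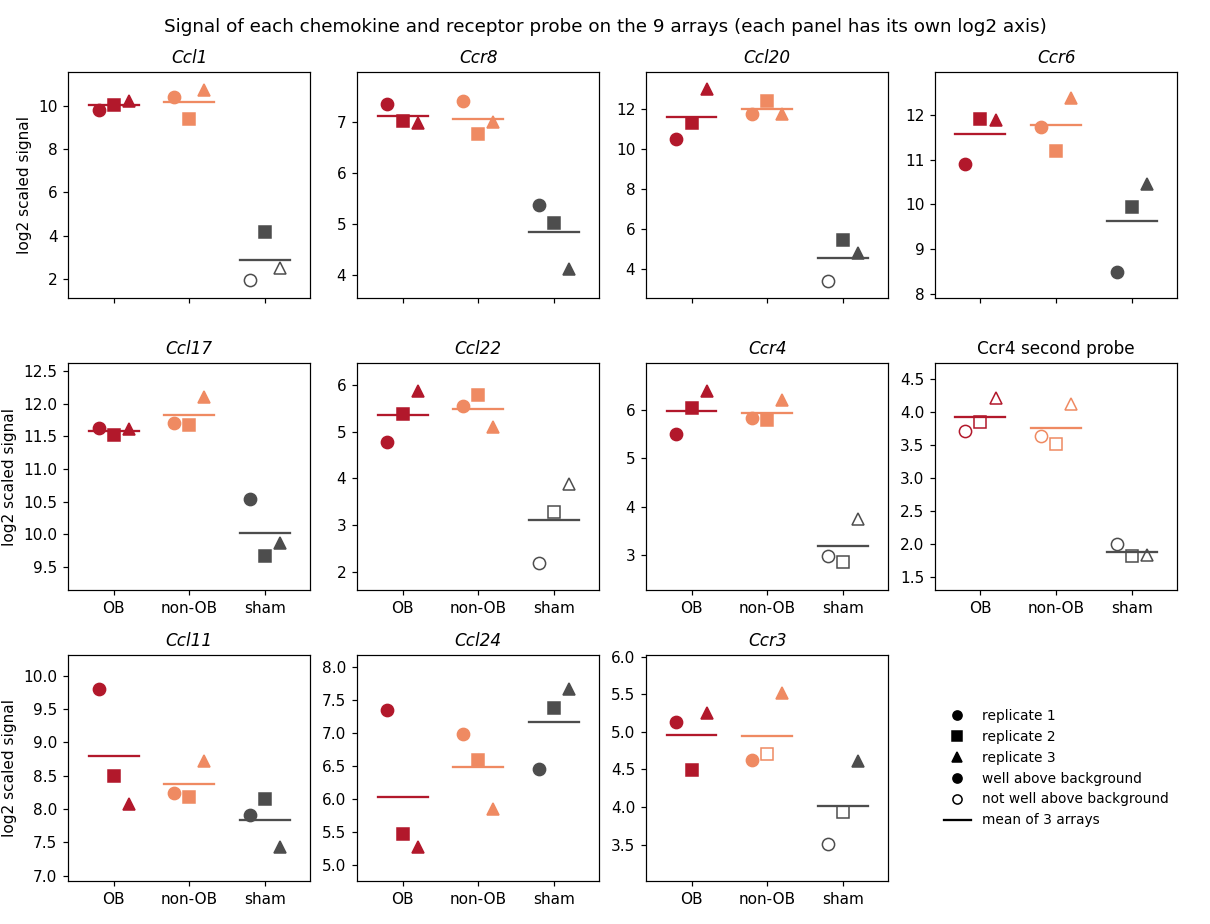
Each panel shows 1 probe, with the log2 scaled signal on its own vertical axis, the 3 groups on the horizontal axis, 1 symbol per array and a bar for the mean of 3. Open symbols mark signals that were not well above background. The sham arrays lie apart from all 6 grafts for the first 8 panels, and they overlap the grafts for *Ccl11*, *Ccl24* and *Ccr3*.

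*Ccl1*, the ligand of Ccr8, was near background in sham lungs and well above it in every graft. Its log2 signal was 9.81, 10.05 and 10.24 in OB 1, 2 and 3, 10.42, 9.41 and 10.73 in the non-OB grafts, and 1.93, 4.19 and 2.51 in the sham lungs. All 6 grafts lay at least 5.22 log2 units above the brightest sham array, sham 2, the only sham array on which the probe was well above background. The mean was 10.03 ± 0.22 (SD, n = 3) in OB, 10.19 ± 0.69 in non-OB and 2.88 ± 1.17 in sham, which is a difference of 7.16 for OB as a description and of 7.31 with SE 0.58 for non-OB (159-fold, limma adjusted p = 0.00249). Raising low signals to the floor of each array lowered these differences to 5.93 and 6.09, and the normexp background model lowered them to 3.55 and 3.67. On slide 1, OB 1 lay 6.75 and non-OB 1 lay 7.37 log2 units above the mean of the sham lungs on that slide.

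*Ccr8*, the receptor, showed a smaller difference from a probe that was well above background on all 9 arrays. Its log2 signal was 7.33, 7.00 and 6.97 in OB, 7.40, 6.75 and 7.00 in non-OB, and 5.38, 5.03 and 4.11 in sham. The grafts spanned 0.65 log2 units and the lowest of them lay 1.37 above the highest sham array. The mean was 7.10 ± 0.20 in OB and 4.84 ± 0.65 in sham, a difference of 2.26, and 7.05 ± 0.33 in non-OB, a difference of 2.21 with SE 0.34 (4.63-fold, limma adjusted p = 0.0179). On slide 1 the differences were 2.13 for OB 1 and 2.20 for non-OB 1. The call for *Ccr8* ended when non-OB 1, non-OB 3 or sham 2 was left out, with adjusted p of 0.0696, 0.0558 and 0.0714. It also ended with quantile normalization (adjusted p = 0.0512) and with only the 2 groups in the fit (adjusted p = 0.0576). With normexp the difference of non-OB from sham was 0.86, under 2-fold.

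*Ccl20*, the epithelial ligand of Ccr6, was far higher in every graft than in any sham lung. The log2 signal was 10.49, 11.29 and 12.96 in OB, 11.76, 12.40 and 11.74 in non-OB, and 3.42, 5.47 and 4.82 in sham, where sham 1 was not well above background. OB 3 was the highest and OB 1 the lowest of the 6 grafts, and the non-OB arrays fell between them. The lowest graft lay 5.02 log2 units above the highest sham array. The mean was 11.58 ± 1.26 in OB, 11.97 ± 0.37 in non-OB and 4.57 ± 1.05 in sham. The difference from sham was 7.02 for OB as a description and 7.40 with SE 0.70 for non-OB (169-fold, limma adjusted p = 0.00354). It was 6.05 for OB 1 and 7.32 for non-OB 1 on slide 1, and with normexp 4.80 and 5.08 for the group means.

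*Ccr6* was well above background in all lungs and highest in the grafts, but non-OB did not pass the test against sham. It measured 10.90, 11.92 and 11.89 in OB, 11.74, 11.19 and 12.37 in non-OB, and 8.49, 9.93 and 10.47 in sham on the log2 scale. The sham arrays spanned 1.98 log2 units, with sham 1 the lowest, and the lowest graft lay 0.43 above sham 3. The mean was 11.57 ± 0.58 in OB and 9.63 ± 1.02 in sham, a difference of 1.94, and 11.77 ± 0.59 in non-OB, a difference of 2.14 with SE 0.55 (limma adjusted p = 0.0975). The 95% interval of the latter ran from 0.86 to 3.41, and an alternative spread model (trend and robust) called it with an adjusted p of 0.0438. On slide 1 the differences were 1.68 for OB 1 and 2.53 for non-OB 1. B cells carry Ccr6, and of 9 B cell markers none was called in either graft group, with a median log2 difference of -0.05 for OB and 0.08 for non-OB and list means of 8.81 to 9.96 in OB, 9.38 to 10.21 in non-OB and 8.81 to 9.95 in sham.

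*Ccl17*, a ligand of Ccr4, was well above background on all arrays and varied little among the grafts. The arrays read 11.63, 11.52 and 11.61 in OB, 11.70, 11.68 and 12.10 in non-OB, and 10.54, 9.67 and 9.86 in sham on the log2 scale. The 6 grafts spanned 0.57 log2 units and lay at least 0.98 above sham 1, the highest sham array. The mean was 11.59 ± 0.06 in OB and 10.02 ± 0.46 in sham, a difference of 1.56, and 11.82 ± 0.24 in non-OB, a difference of 1.80 with SE 0.25 (3.48-fold, limma adjusted p = 0.0133). Within slide 1 the differences were 1.53 for OB 1 and 1.59 for non-OB 1. Leaving out sham 2 or sham 3 ended the call, with adjusted p of 0.0641 and 0.056, as did fitting only the 2 groups (adjusted p = 0.0526).

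*Ccl22*, the second Ccr4 ligand, was dim but detected in every graft and in no sham lung. Log2 signals were 4.78, 5.38 and 5.87 in OB, 5.54, 5.78 and 5.09 in non-OB, and 2.20, 3.27 and 3.88 in sham. None of the sham arrays was well above background, so only a bound can be given against them. The mean of 5.35 ± 0.55 in OB was at least 2.46-fold and the mean of 5.47 ± 0.35 in non-OB at least 2.68-fold higher than sham (limma adjusted p = 0.0393 for non-OB against a measured sham mean of 3.12). The call was lost when any non-OB array was left out (adjusted p = 0.094, 0.0922 and 0.0764 without non-OB 1, 2 and 3) and when sham 1 or sham 2 was (adjusted p = 0.0905 and 0.135), and also with quantile normalization (adjusted p = 0.0812) and with only the 2 groups in the fit (adjusted p = 0.0754). With normexp the difference was 0.32 with an adjusted p of 0.148.

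*Ccr4* had 2 probes, of which the brighter was well above background in all grafts and in no sham lung. Log2 signals were 5.51, 6.04 and 6.39 in OB, 5.83, 5.80 and 6.22 in non-OB, and 2.99, 2.86 and 3.75 in sham, so the groups of grafts overlapped each other and lay apart from sham by at least 1.76. The mean of 5.98 ± 0.44 in OB was at least 3.81-fold and that of 5.95 ± 0.23 in non-OB at least 3.73-fold higher than sham (limma adjusted p = 0.0069 for non-OB against a measured sham mean of 3.20). With normexp the difference was 0.53, under 2-fold. The second *Ccr4* probe stayed near background on every array. It was called in non-OB as well (limma adjusted p = 0.00788), but no fold is given for it, and with low signals raised to the floor its adjusted p was 0.24.

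In the eotaxin axis no gene was called in non-OB, and none lay apart from sham by 2-fold without overlap. *Ccl11*, which attracts eosinophils, had a log2 signal of 9.79, 8.49 and 8.08 in OB, 8.24, 8.18 and 8.72 in non-OB, and 7.92, 8.15 and 7.43 in sham. OB 1 stood above the rest, OB 3 lay under sham 2, and the lowest non-OB array was just above the highest sham array. The difference from sham was 0.96 for OB and 0.55 with SE 0.44 for non-OB (limma adjusted p = 0.504). On slide 1 it was 1.76 for OB 1 and 0.20 for non-OB 1.

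*Ccl24*, the second eotaxin, was the only gene of the set with a lower mean in grafts than in sham. Its log2 signal was 7.34, 5.46 and 5.27 in OB, 6.99, 6.60 and 5.85 in non-OB, and 6.45, 7.38 and 7.66 in sham, and the groups overlapped. The mean fell by 1.14 log2 units from sham in OB as a description, and in non-OB the difference was -0.69 with SE 0.60 (limma adjusted p = 0.545). On slide 1 the sign was the other way, at 0.43 for OB 1 and 0.08 for non-OB 1. *Ccr3*, the eotaxin receptor, had a log2 signal of 5.13, 4.49 and 5.25 in OB, 4.62, 4.71 and 5.52 in non-OB, and 3.51, 3.93 and 4.61 in sham. It was well above background on all OB arrays, on 2 non-OB arrays and on sham 3. OB 2 lay under sham 3, and the difference of non-OB from sham was 0.93 with SE 0.37 (limma adjusted p = 0.262). On slide 1 the difference from sham was 1.40 for OB 1 and 0.90 for non-OB 1. Neither sham array on that slide was well above background for this probe.

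**Figure D2:**
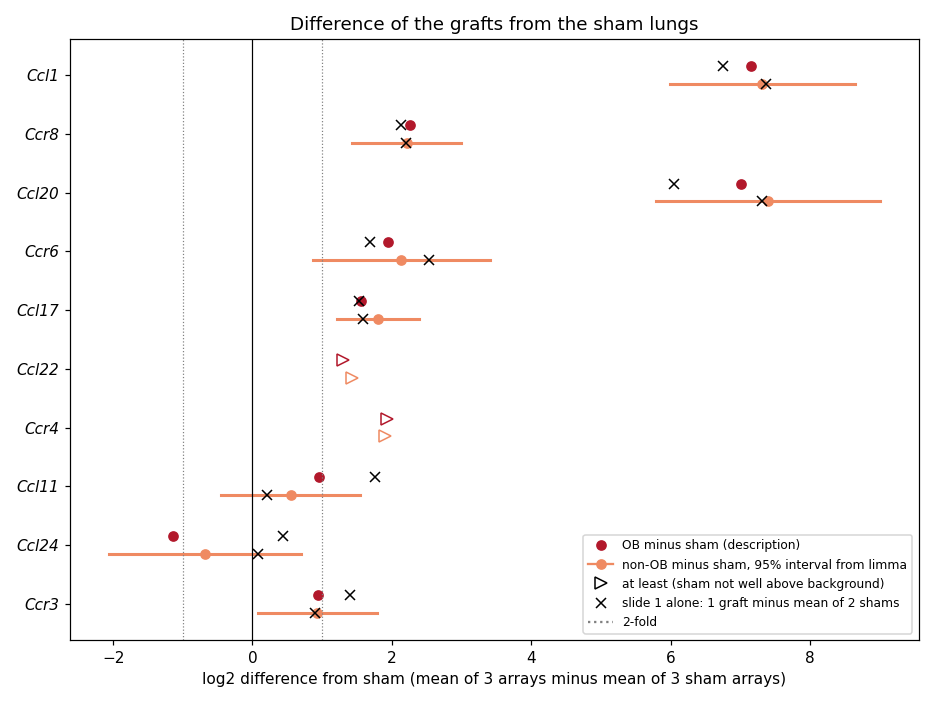
The log2 difference of each gene from the sham mean is on the horizontal axis, for OB (red, without a test) and non-OB (orange, with the 95% interval from limma), crosses give slide 1 alone, and open triangles are lower bounds where sham was not well above background. *Ccl1* and *Ccl20* lie near 7 log2 units, 7.16 and 7.02 in OB, *Ccr8*, *Ccr6* and *Ccl17* between 1.56 and 2.26, and *Ccl24* has its mean below 0.

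With slide as a fixed block, no probe of the set was called in non-OB, and over all probes none was called in non-OB and 4 in OB, where only slide 1 held both grafts and sham. The block left the differences of non-OB from sham at 7.14 for *Ccl1*, 2.14 for *Ccr8*, 6.88 for *Ccl20* and 1.68 for *Ccl17*, with adjusted p of 0.107, 0.0974, 0.107 and 0.17. With slide as a random block 7 probes were called. Against sham 1 alone, the array that the clustering plot marks as C57BL/10, the differences of non-OB were 8.26 for *Ccl1*, 8.55 for *Ccl20*, 1.67 for *Ccr8* and 1.28 for *Ccl17*. They are given without a test, because the spread of a single sham array is unknown.

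Between OB and non-OB grafts no gene of the set passed the test. No probe of the set was called, and over all 56601 probes limma called 0%, with 1.95% at an unadjusted p under 0.05, against none of the 11. The methods' t-test after adjustment and every other alternative run likewise called none of the 11. The differences of OB from non-OB ran from -0.45 for *Ccl24* to 0.41 for *Ccl11*. The narrowest intervals among probes above background were those of *Ccl17*, from -0.82 to 0.35, *Ccr4*, from -0.69 to 0.76, and *Ccr8*, from -0.73 to 0.83, and the widest was that of *Ccl20*, from -1.99 to 1.22. A difference of 2-fold lies outside the interval for *Ccl17*, *Ccr4* and *Ccr8*. It also lies outside that of *Ccr3* (-0.85 to 0.86), but that probe was close to background and well above it on only 2 non-OB arrays. It lies inside the interval for *Ccl1* (-1.49 to 1.17), *Ccl20*, *Ccr6* (-1.47 to 1.08), *Ccl22* (-1.18 to 0.93), *Ccl11* (-0.59 to 1.41) and *Ccl24* (-1.83 to 0.93).

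Pairs of grafts on 1 slide did not run one way either. For *Ccl1* the OB graft was lower by a difference of -0.62 on slide 1 and -0.68 on slide 2 and higher by 0.83 on slide 3. For *Ccl20* the values were -1.27, -0.45 and 0.57, and for its receptor *Ccr6* -0.84, -0.45 and 0.70. *Ccl17* alone was lower in the OB graft of all 3 pairs, at -0.07, -0.57 and -0.07. Its highest OB array, at 11.63, also lay just under its lowest non-OB array, at 11.68. The group difference of *Ccl17* had an unadjusted p of 0.379 (limma), so nothing is read from these signs or this gap.

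**Figure D3:**
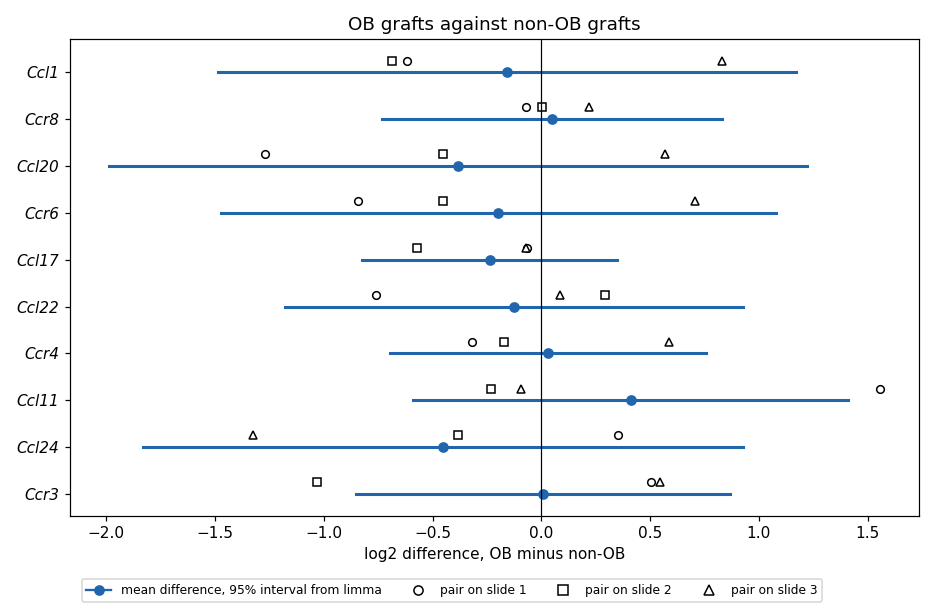
The log2 difference of OB minus non-OB is on the horizontal axis for the 10 genes, with the 95% interval from limma as a line and the graft pairs of slides 1, 2 and 3 as open symbols. All 10 intervals cover 0, and the pair on slide 3 lies to the right of that on slide 1 for *Ccl1*, *Ccr8*, *Ccl20*, *Ccr6*, *Ccl22*, *Ccr4* and *Ccr3*.

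Lists of related genes, written with earlier results of these data known, were described by 1 probe per gene, the brightest. The p-values of list genes come from the same arrays, so they describe the genes and give no independent support. Over all 22909 genes limma called 3.82% higher and 3.73% lower in OB, and 2.52% higher and 1.13% lower in non-OB, with medians of -0.05 and -0.01. Of the 5 other ligands of the same receptors, 3 rose in OB and 2 in non-OB. *Ccl8*, an agonist of mouse Ccr8, rose from 8.95 ± 0.69 in sham to 14.70 ± 0.34 in OB and 13.56 ± 0.28 in non-OB (limma adjusted p = 0.000839 and 0.00249), differences of 5.74 and 4.61. *Ccl7*, a ligand of Ccr3 among others, rose by 3.19 and 3.18 (adjusted p = 0.00261 and 0.00427). *Ccl5*, which also binds Ccr3, rose by 1.80 in OB (adjusted p = 0.00894) and differed by 0.88 in non-OB (adjusted p = 0.143). Neither *Ccl26* nor *Ccl28* passed the test.

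Of 10 other CC chemokines, 7 rose in OB and 6 in non-OB, with medians of 2.52 and 1.68. *Ccl2*, a monocyte attractant, rose by 2.72 and 2.70 (adjusted p = 0.00161 and 0.00301), and *Ccl19*, a ligand of Ccr7 on naive T cells and dendritic cells, by 2.91 and 2.79 (adjusted p = 0.00335 and 0.0069). Of 6 other CC receptors, 2 rose in each comparison, among them *Ccr9* by 1.92 and 1.71. The 4 atypical receptors, which bind chemokines without the usual signalling, went both ways. *Ackr1* rose by 5.20 in OB and 4.19 in non-OB, *Ackr4* fell by 3.02 and 2.97, and *Ackr2*, a scavenger of Ccl17 and Ccl22 among others, fell by 1.64 in OB (adjusted p = 0.0264) and differed by -0.77 in non-OB (adjusted p = 0.28).

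Markers of cells that carry the receptors moved unevenly, and their part in the values above was not tested. Of 10 regulatory T cell markers, 8 rose in OB and 8 in non-OB, with medians of 3.03 and 2.76, and the mean of the list was 9.48 to 9.64 in OB, 9.13 to 9.56 in non-OB and 6.80 to 6.97 in sham. *Foxp3*, the factor that defines these cells, rose from 5.03 ± 0.26 in sham to 8.27 ± 0.23 in OB and 8.01 ± 0.26 in non-OB (adjusted p = 0.00105 and 0.00222). *Ctla4*, an inhibitory receptor, was not well above background in any sham lung and was at least 9.38-fold higher in OB and at least 7.33-fold higher in non-OB (adjusted p = 0.00132 and 0.00301). *Lrrc32* went the other way, at -0.76 in OB and -0.20 in non-OB (limma adjusted p = 0.24 and 0.76). Several of the 10 markers are also carried by other activated T cells. Of 9 general T cell markers, 8 rose in OB and 5 in non-OB, with list means of 11.84 to 12.09, 11.17 to 11.69 and 9.51 to 10.17 in OB, non-OB and sham, and *Cd3e* rose by 2.06 and 1.65 (adjusted p = 0.00335 and 0.0122).

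None of 9 type 2 helper T cell markers was called in either comparison, with list means of 6.27 to 6.59 in OB, 6.14 to 6.64 in non-OB and 5.73 to 6.38 in sham. The median differences were 0.50 and 0.28. The highest was that of *Il17rb*, at 1.71 in OB and 1.78 in non-OB (limma adjusted p = 0.0722 and 0.0959). The lowest was that of *Ptgdr2*, at -0.85 and -0.87 (limma adjusted p = 0.221 and 0.257). *Il5*, *Il13* and *Il9*, cytokines of these cells, were well above background on no array, and *Gata3*, their defining factor, lay at 11.60 ± 0.18, 11.82 ± 0.27 and 11.82 ± 0.09. Of 8 type 17 markers, 1 rose in OB and none in non-OB. The gene was *Batf*, a factor that other activated lymphocytes express too (difference 1.58, adjusted p = 0.0118), and *Il17a* was above background on 1 array, a non-OB graft. The list mean was 7.24 to 7.35 in OB, 7.56 to 7.81 in non-OB and 6.88 to 7.09 in sham.

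Of 9 eosinophil markers, 2 rose in both comparisons, *Prg2* and *Prg3*, which encode granule proteins. *Prg2* was at least 16.8-fold higher in OB and at least 9.25-fold higher in non-OB than in sham, where no array was well above background (adjusted p = 0.00155 and 0.00427). *Epx*, the eosinophil peroxidase, was well above background on no array, and *Siglecf*, shared with alveolar macrophages, lay at 9.43 ± 0.75, 8.68 ± 0.51 and 9.55 ± 0.35. The list mean was 7.61 to 7.84 in OB, 6.83 to 7.98 in non-OB and 6.39 to 7.19 in sham. Of 9 matched mast cell and basophil markers, 1 fell in OB, *Gata2* (difference -1.98, adjusted p = 0.0282), and none was called in non-OB, with medians of -0.90 and -0.47.

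Of 10 dendritic cell markers, 7 rose in each comparison, with medians of 2.36 and 2.34 and list means of 9.08 to 9.44 in OB, 8.96 to 9.30 in non-OB and 6.95 to 7.39 in sham. *Flt3*, the receptor of their growth factor, rose by 3.03 and 2.68 (adjusted p = 0.00132 and 0.00322), while *Zbtb46* differed by -0.52 and -0.27 (adjusted p = 0.136 and 0.408). Of 8 markers of alternatively activated macrophages, 2 rose in each comparison, *Mgl2* and *Clec10a*, which dendritic cells also carry, with medians of 1.14 and 1.10. None of the 7 type 2 alarmin and signalling genes was called, with medians of 0.02 and 0.09, and *Stat6* differed by 0.02 and 0.09. Of 12 NF-kappa B and IL-17 signalling genes, 2 rose in each, *Nfkb2* by 1.13 and 1.10 and *Relb* by 1.19 and 1.13, with medians of 0.52 and 0.47. None of 8 airway epithelium markers was called, with medians of -0.70 and -0.63. Of 7 lung tissue markers 2 fell in each, *Hopx* by 1.82 and 1.14 and *Cdh5* by 1.48 and 1.01. Over all lists, 43 genes were called higher in OB, and the count was 1 with slide as a fixed block.

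**Figure D4:**
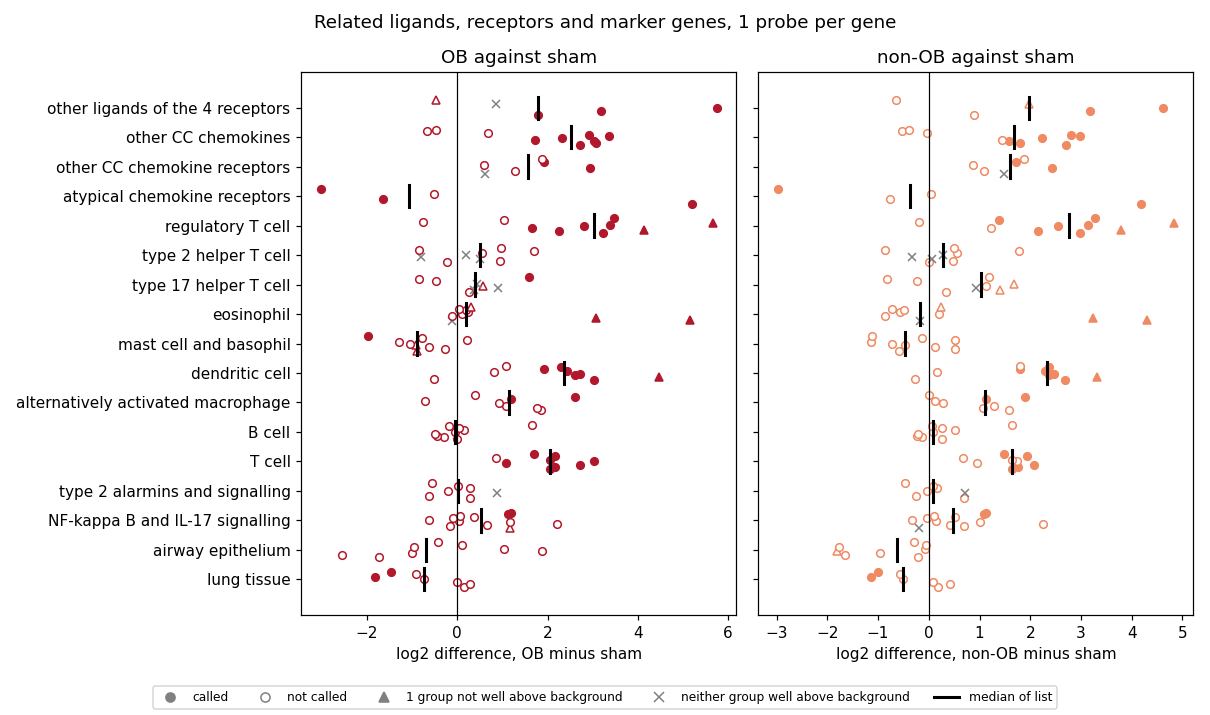
Each point is 1 gene of a list, with its log2 difference from sham on the horizontal axis, for OB on the left and non-OB on the right, and vertical bars are list medians. Filled points were called, triangles have 1 group and grey crosses neither group well above background. The regulatory T cell, dendritic cell and T cell lists lie to the right, with medians of 3.03, 2.36 and 2.06 in OB. The median in OB was 0.50 for the type 2 helper T cell list and -0.05 for the B cell list.

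Genes whose profile over the 9 arrays lay closest to each member were ranked by the root mean square difference of centred log2 values, among 14892 genes well above background on all 6 grafts. The likeness is a description and follows mainly the step between sham and graft. Nearest to *Ccl20* was *Lbhd2* at 0.37, then *Ccl1* at 0.76, *Plekhs1* at 0.77, *1810009J06Rik* at 0.90 and *Dnase1l3* at 1.14. Nearest to *Ccl1* were *Lbhd2* at 0.74, *Ccl20* at 0.76, *1810009J06Rik* at 0.90, *Dnase1l3* at 1.00 and *Cxcl9*, an interferon-induced chemokine, at 1.06. *Lbhd2* had a mean of 10.62 in OB, 11.21 in non-OB and 4.22 in sham.

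For the other ranked members, receptors and ligands alike, the nearest gene was closer than for *Ccl1* and *Ccl20*. Nearest to *Ccr4* were *Ccl19* at 0.24, *Ubash3a*, a regulator of T cell receptor signalling, at 0.24 and *Cxcr3*, a receptor of activated T cells, at 0.27. Nearest to *Ccr6* were *Zc3h12d* at 0.20, *Clec5a* at 0.29 and *Tlr1* at 0.30, and nearest to *Ccr8* were *Spc24* at 0.29, *Oas1f* at 0.32 and *Il1r2*, a decoy receptor for interleukin-1, at 0.34. For *Ccl17* they were *Nudt17* at 0.27, *Pvt1* at 0.28 and *H2-K2* at 0.28, and for *Ccl22* *Clec5a* at 0.31, *H2-Oa* at 0.33 and *Tgtp2* at 0.35. For *Ccl11* they were *6720483E21Rik* at 0.27, *Klk4* at 0.33 and *1600010M07Rik* at 0.33, and for *Ccl24* *Ccno*, a gene of multiciliated cells, at 0.35 and *Spink2* at 0.37. *Ccr3* was not ranked, because its probe was not well above background on all grafts.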

How the data were processed

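Total RNA of 9 mouse left lungs was hybridised to 1 Agilent SurePrint G3 array each. The authors deposited the intensity of every spot from Feature Extraction 12.0.3.1, background-subtracted and spatially detrended, and a table of intensity values scaled to a trimmed mean of 2500. Here the processed intensity was scaled in the same way, by trimming 2% at each end, spots flagged as outliers and 3671 control spots were left out, replicate spots were averaged and log2 was taken. The value table differed from these values by a relative 4.99e-10 at most and served as an alternative.

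Groups came from the sample labels. The members and lists were chosen with earlier results of these data known. All 9 arrays entered 1 fit of limma 3.58.1 (R 4.3.3), with lmFit, eBayes and 1 mean per group, and p-values were adjusted by Benjamini-Hochberg over 56601 probes. A probe was called at an adjusted p under 0.05 and a 2-fold difference, with no fold threshold between OB and non-OB. The labels do not say how the lungs of a group relate beyond being separate samples. Genes were named through RefSeq accessions (GRCm38.p6, 32991 probes). The array design uses another build, so no probe coordinates are given. Where none of a group's arrays was well above background, the fold is a bound from the lowest such signal on each of its arrays. The genes named are the 10 members, the list genes, and the 3 nearest profiles of each member (5 for *Ccl1* and *Ccl20*), and some genes that this rule names are not reported here. The fit was tested on simulated data. Alternatives were other scalings, normexp with offset 50, a floor, a filter on dim probes, other spread models, the methods' t-test, blocks for slide or replicate number, sham 1 alone, and each array left out. The number of arrays limits the precision.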

Additional observations from a re-analysis of the deposited data

How the results depend on the processing

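Scaling to the 75th percentile, the deposited value table, slide as a random block and leaving out any OB array kept the count of called probes in non-OB against sham at 6 to 7 of 11. It was 5 with quantile normalization, which ended the calls of *Ccr8* and *Ccl22*. The count moved from 7 to 3 with normexp, to 4 with only the 2 groups in the fit, and to 0 with the methods' t-test after adjustment, with slide as a fixed block and with sham 1 as the only sham array. It ranged from 4 to 7 when 1 array was left out, with 4 without sham 2. The methods' t-test at its unadjusted threshold called 8. The probes apart by 2-fold without overlap in OB against sham numbered 8, and 4 with normexp, and were 9 with any OB or sham array left out. No probe was called in OB against non-OB under any alternative run. The list genes called higher in OB, 43, moved to 1 with slide as a fixed block and to 20 with sham 1 alone, where the spread came only from the grafts and was assumed for the lone sham array, so that nothing is read from calls lost there, and ranged from 35 to 42 with an array left out. Raising low signals to the floor shifted the median of all probes from 0.08 to 0.29 in OB and from 0.13 to 0.33 in non-OB. Sign changes were confined to differences that were not called. With the floor the second *Ccr4* probe stood at -0.013 and *Ccr3* at -0.087 in OB against non-OB, and with normexp *Ccr3* at -0.015. *Ccl24* in non-OB against sham was 0.48 with slide as a fixed block and 0.031 with sham 1 alone. With an array left out, the differences of OB from non-OB ran from -0.55 to 0.12 for *Ccl1*, -0.10 to 0.23 for *Ccr8*, -1.07 to 0.16 for *Ccl20*, -0.49 to 0.14 for *Ccr6*, -0.39 to 0.15 for *Ccl22*, -0.17 to 0.27 for *Ccr4*, -0.093 to 0.76 for *Ccl11* and -0.16 to 0.29 for *Ccr3*. The cause of these changes was not tested.

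The samples were not treated as paired by replicate number. Deviations of same-numbered OB and non-OB arrays correlated at 0.28, -0.40 and 0.03, which are too few pairs to settle a pairing. The replicate 1 grafts also share slide 1, and the graft pairs of slides 1, 2 and 3 correlated at 0.28, 0.45 and 0.18. With the replicate number as a block, 6 of the 11 probes were called in non-OB against sham (*Ccl22* at an adjusted p of 0.0627), 0 in OB against non-OB, and 41 list genes were called higher in OB. Signals close to background limit *Ccl22*, *Ccr4*, *Ccr3* and the sham values of *Ccl1* and *Ccl20*, whose folds depend on the background model.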
